A study of Mus musculus with 17 samples.

Results

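The 36 genes described here serve germ cells: 8 germ cell regulators, 12 meiosis genes, 13 genes of the piRNA pathway and Tudor domain proteins, and 3 testis energy and surface proteins. They were taken by name from 28670 genes, and all 36 were found. The choice was made with earlier results of these data known. They were followed through 17 RNA-seq samples of mouse cells in 7 groups, made to ask whether fibroblasts can be reprogrammed in the absence of Nanog, a homeobox gene of the pluripotency network. WT embryonic stem cells (ESC) gave 4 samples at passages 10 to 15, and WT induced pluripotent stem cells (iPSC) gave 3, 1 of them at passage 6 and the others at passages 10 to 15. WT piPSC, cells labelled as partially reprogrammed, gave 2 samples of 1 clone (B1) at passage 6. Nanog-/- ESC (here Nanog-null ESC) gave 2 samples at passage 6, and clones G2 and G5 of Nanog-/- iPSC gave 2 samples each at passage 6. WT embryonic fibroblasts (MEF) gave 2 samples at passage 2. Per the labels' protocols, Nanog-/- fibroblasts came from chimeric embryos by sorting for GFP, and retroviruses delivered Klf4, Oct4 and Sox2, and in some cases c-Myc. The Nanog-/- lines grew on feeder cells, a layer of other cells in the same dish, in 2i and LIF. The sample codes start with AC (11 samples, strain 129/B6 v6.5) or JI (6 samples, strain C57/B6), called batches here, and batch and strain cannot be told apart. WT ESC had 2 samples in each batch, WT iPSC had 1 in AC and 2 in JI, WT MEF were all JI, and the other groups were all AC.

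Germline genes are normally silent outside germ cells, where DNA methylation and repressor complexes that contain MGA, MAX and E2F6 hold many of them off. Mouse embryonic stem cells are known to transcribe part of this set at low to moderate levels, above all when grown in 2i. In germ cells, regulators such as Dazl and Ddx4 set germ cell identity, Stra8 starts the meiotic programme, and the synaptonemal complex and cohesin proteins then pair and hold the chromosomes. The piRNA pathway, with its PIWI proteins and Tudor domain scaffolds, silences transposons in the male germ line.

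Promoters were looked at first, since E-boxes (CACGTG, the same on both strands) and E2F6-type sites (GCGGGA, searched on both strands; the motifs share no overlap in the matches printed here) are the letters these repressors are known to recognise. RefSeq promoters on GRCm38, from 250 bases before to 50 bases after each start, were at hand for 32 of the 36 genes. Dnd1, Spo11, Tdrd6 and Piwil2 had no entry. An E-box occurred in 13 of the 32 genes (40.6%), against 8.09% of all 27025 genes with a promoter. GCGGGA also occurred in 13 of the 32, against 22.0% of all genes, and 7 genes held both motifs. The median number of CpG was 19.5 in the genes described here, each taken at its start with the most CpG. Over all 32851 promoters, each counted singly, it was 7, so these medians are not quite like measures. These are descriptions of letters, and nothing was measured on binding or methylation. The 120 bases before the start of 7 genes are shown because they span the behaviours reported below, with E-box and GCGGGA matches in capitals and each sequence 5′ to 3′ on the strand of its gene. The first 4 genes hold an E-box: Hormad1 (chr3:95559557-95559676, forward strand), Sycp3 (chr10:88459467-88459586, forward strand), Taf7l (chrX:134476491-134476610, reverse strand) and Stk31 (chr6:49395419-49395538, forward strand). The other 3 hold none in the window of 300 bases: Tdrd12 (chr7:35537716-35537835, reverse strand), Aurkc (chr7:6995265-6995384, forward strand) and Cyct (chr2:76360454-76360573, reverse strand).
Hormad1: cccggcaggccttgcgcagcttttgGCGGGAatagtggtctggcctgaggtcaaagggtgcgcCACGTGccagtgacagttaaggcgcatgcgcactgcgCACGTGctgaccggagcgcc
Sycp3: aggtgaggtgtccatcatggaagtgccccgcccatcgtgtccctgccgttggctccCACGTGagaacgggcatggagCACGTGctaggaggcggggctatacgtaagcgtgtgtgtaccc
Taf7l: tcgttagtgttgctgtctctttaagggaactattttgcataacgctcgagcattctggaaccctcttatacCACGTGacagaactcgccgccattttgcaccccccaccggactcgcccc
Stk31: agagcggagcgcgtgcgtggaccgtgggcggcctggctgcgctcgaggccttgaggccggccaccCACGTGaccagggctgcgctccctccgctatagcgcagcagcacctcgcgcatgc
Tdrd12: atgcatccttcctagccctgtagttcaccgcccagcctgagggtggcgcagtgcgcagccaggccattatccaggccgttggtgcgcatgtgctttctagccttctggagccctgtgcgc
Aurkc: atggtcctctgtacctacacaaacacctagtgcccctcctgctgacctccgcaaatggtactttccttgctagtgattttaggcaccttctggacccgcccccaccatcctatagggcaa
Cyct: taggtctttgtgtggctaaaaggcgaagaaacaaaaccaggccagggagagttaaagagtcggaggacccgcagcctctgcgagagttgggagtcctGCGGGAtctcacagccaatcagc
Tdrd12, Aurkc and Cyct, with no E-box, were among the genes with the largest falls in cells without Nanog. Of the E-box genes shown, Hormad1 and Sycp3 were lower in Nanog-null ESC, and Taf7l and Stk31 did not pass the test there across batches, though Stk31 did within batch AC. In all, 20 of 35 genes tested were called lower in Nanog-null ESC, against 26.0% of the 17587 genes tested. Of those with a promoter, an E-box was found in 7 of the 19 called lower and in 6 of the 13 that were not. GCGGGA was found in 9 of the 19 and in 4 of the 13.

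Depth was 17682401 to 43501951 fragments per sample in batch AC and 7795960 to 30077204 in batch JI. Nanog itself was at 295 to 574 FPKM (fragments scaled to transcript length and library size) in WT ESC, 270 to 762 in WT iPSC, 45.8 to 49.5 in Nanog-null ESC, 27.2 to 27.8 in clone G2, 40.0 to 43.0 in clone G5, 2.91 to 3.12 in WT piPSC and 0.0539 to 0.242 in WT MEF. The labels do not say which part of Nanog is deleted, so transcript in the Nanog-/- lines checks their genotype only in part. Sperm and spermatid markers stayed at a summed 0.0325 to 1.04 FPKM over 6 genes in every sample, with none at 1 FPKM or more. Pluripotency markers (8 genes, Nanog among them) summed to 6019 to 18745 FPKM in WT ESC and WT iPSC, 2039 to 3968 in the Nanog-null lines, 111 to 169 in WT piPSC and 0.896 to 0.902 in WT MEF. Fibroblast markers (9 genes) summed to 102 to 245 FPKM in WT ESC and WT iPSC, 24.7 to 78.0 in WT piPSC, 705 to 714 in Nanog-null ESC, 1081 to 1151 in clone G2, 434 to 435 in clone G5 and 3440 to 3489 in WT MEF. In bulk RNA, fewer cells of a type and less RNA per cell cannot be told apart. The AC sample of WT iPSC, called WT iPSC 1 below, stood apart from the JI samples of its group. Markers of 2-cell-like cells (5 genes) summed to 400 FPKM in it and to 0.643 and 0.710 in the JI samples, against 48.0 to 53.8 in AC and 1.20 to 1.27 in JI samples of WT ESC. They summed to 33.8 to 37.9 FPKM in Nanog-null ESC, 65.6 to 68.7 in clone G2 and 115 to 134 in clone G5. It serves as the only WT iPSC of its batch.

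Most of the genes were detected in WT ESC and WT iPSC, fewer in cells without Nanog, and few in WT piPSC and WT MEF. Of the 36 genes, 27 to 29 reached 1 FPKM in each WT ESC sample and 28 to 29 in each WT iPSC sample. In the Nanog-null lines 21 to 22 did so in ESC, 20 to 23 in clone G2 and 25 to 26 in clone G5. In WT piPSC and in WT MEF 4 to 5 did. WT MEF had 14 to 20 of the genes at 0 fragments, and WT piPSC had 2 to 3. The WT MEF libraries were shallower, at 8734157 and 19842932 fragments against 29375299 and 28479632. Those counts of 0 are therefore not on 1 footing, and the library with 20 was the shallowest of these. The plot of levels by library shows the same order of groups.

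**Figure D1:**
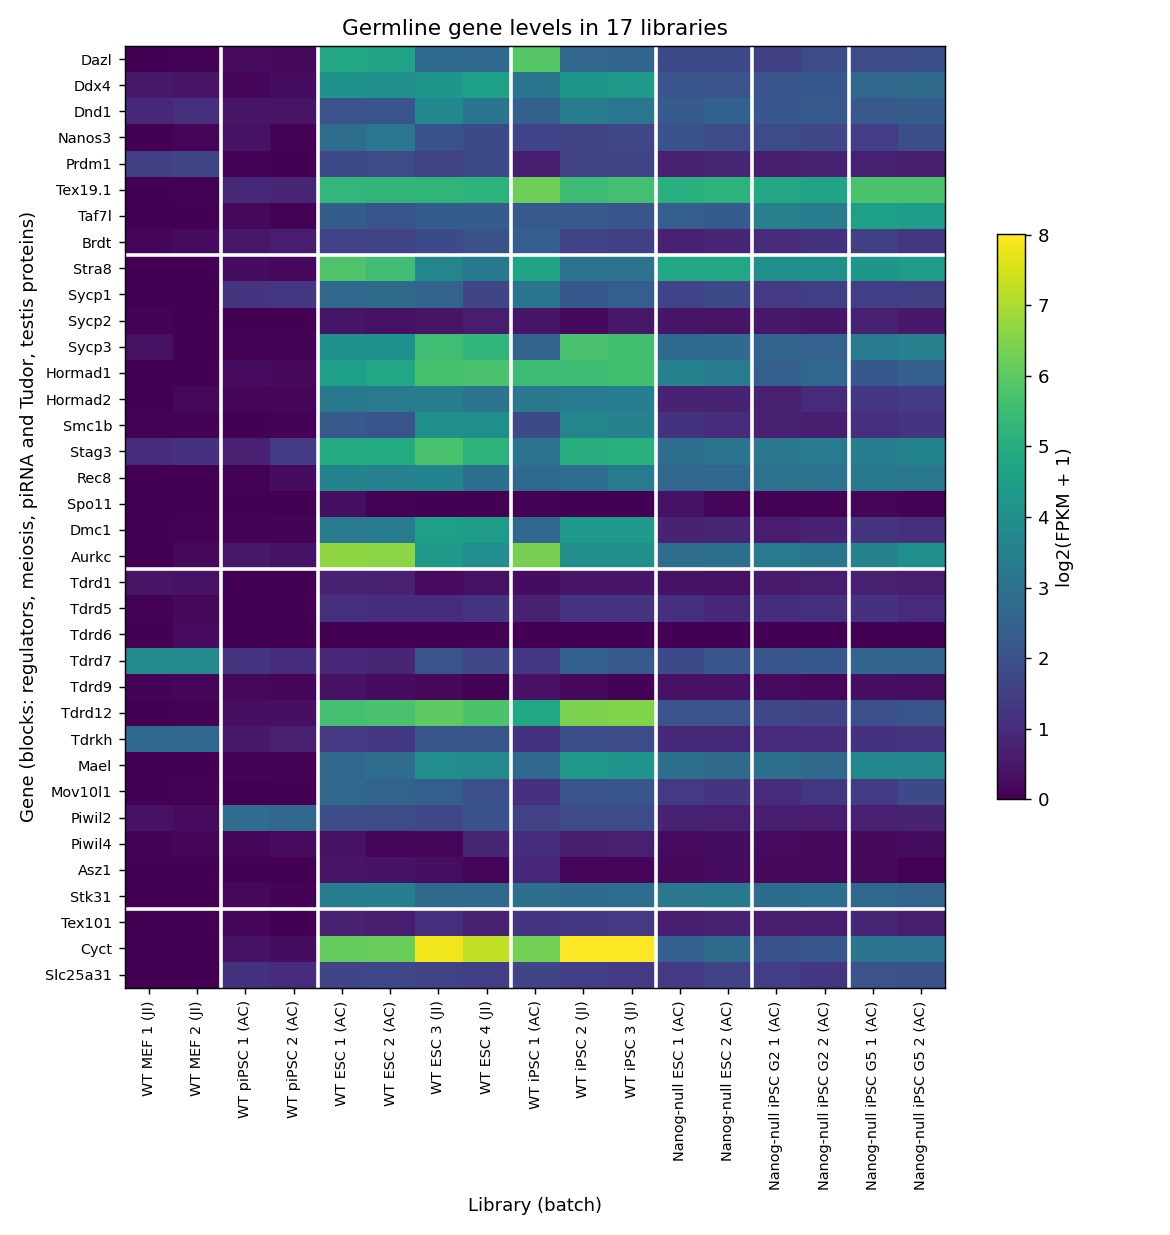
Level of each of the 36 germline genes (rows, in blocks by role) in each of the 17 libraries (columns, with batch in brackets), as log2(FPKM + 1). WT MEF and WT piPSC are dark in nearly all rows, with 4 to 5 genes at 1 FPKM or more, and WT ESC and WT iPSC are the brightest, with 27 to 29.

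Among the germ cell regulators, 5 reached a mean of 5 FPKM in some group. Dazl encodes an RNA-binding protein that licenses germ cells for gametogenesis. Dazl was at 26.9 and 24.8 FPKM in WT ESC of batch AC, 5.94 and 5.59 in WT ESC of batch JI, 58.6 in WT iPSC of batch AC and 5.26 and 5.16 in WT iPSC of batch JI. Dazl stood at 1.86 and 2.58 FPKM in clone G2, 2.61 and 2.8 in clone G5, 2.45 and 2.5 in Nanog-null ESC, 0.181 and 0.125 in WT piPSC, and 0 and 0.037 in WT MEF. Each sample of the Nanog-null lines lay below each sample of WT ESC and of WT iPSC. For Dazl the log2 change was -3.59 ± 0.26 (SE; edgeR's adjusted p = 1.70e-08) in Nanog-null ESC against WT ESC and -4.19 ± 0.21 (edgeR's adjusted p = 3.05e-10) in Nanog-null iPSC against WT iPSC. Ddx4, the germ cell RNA helicase also known as Vasa, was at 15.9 and 15 FPKM in WT ESC of batch AC, 17.5 and 22.3 in WT ESC of batch JI, 7.59 in WT iPSC of batch AC and 17.7 and 18.7 in WT iPSC of batch JI. Ddx4 stood at 3.21 and 3.61 FPKM in clone G2, 5.31 and 5.87 in clone G5, 3.35 and 3.17 in Nanog-null ESC, 0.102 and 0.191 in WT piPSC, and 0.467 and 0.34 in WT MEF. The Nanog-null samples again lay below all WT ESC and WT iPSC samples, with WT iPSC 1 the nearest. For Ddx4 the log2 change was -2.05 ± 0.22 (edgeR's adjusted p = 1.16e-06) in ESC and -1.21 ± 0.21 (edgeR's adjusted p = 1.26e-04) in iPSC.

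Tex19.1, a mammal-specific gene that restrains retrotransposons in germ cells, was the highest of the regulators by FPKM in every group but WT MEF. Tex19.1 was at 38 and 36.6 FPKM in WT ESC of batch AC, 36.5 and 35.3 in WT ESC of batch JI, 75.1 in WT iPSC of batch AC and 44.2 and 47.9 in WT iPSC of batch JI. Tex19.1 stood at 27.4 and 24.3 FPKM in clone G2, 50.8 and 51 in clone G5, 32.7 and 34.8 in Nanog-null ESC, 0.876 and 0.788 in WT piPSC, and 0 and 0.0311 in WT MEF. Nanog-null ESC lay just below WT ESC, and clone G5 lay above all JI samples of WT iPSC but below WT iPSC 1. For Tex19.1 the log2 change of -0.26 ± 0.13 in Nanog-null ESC did not pass the test (edgeR's adjusted p = 0.11), and that of -0.83 ± 0.12 in Nanog-null iPSC did (edgeR's adjusted p = 2.60e-05). Taf7l, a testis form of a general transcription factor subunit, moved the other way. Taf7l was at 4.16 and 3.25 FPKM in WT ESC of batch AC, 4.07 and 4.15 in WT ESC of batch JI, 3.81 in WT iPSC of batch AC and 3.77 and 3.3 in WT iPSC of batch JI. Taf7l stood at 10.3 and 9.22 FPKM in clone G2, 22.7 and 21.1 in clone G5, 4.32 and 4.01 in Nanog-null ESC, 0.122 and 0.0343 in WT piPSC, and 0 and 0 in WT MEF. Both clones lay above all other samples, clone G5 highest, and Nanog-null ESC lay within or just above the range of WT ESC. For Taf7l the log2 change was 1.73 ± 0.18 (edgeR's adjusted p = 9.03e-07) in Nanog-null iPSC against WT iPSC and -0.01 ± 0.18 (edgeR's adjusted p = 0.97) in ESC. Dnd1, an RNA-binding protein that protects primordial germ cells, was at 3.13 and 3.25 FPKM in WT ESC of batch AC, 12.3 and 7.46 in WT ESC of batch JI, 4.58 in WT iPSC of batch AC and 9.33 and 7.8 in WT iPSC of batch JI. Dnd1 stood at 3.54 and 3.71 FPKM in clone G2, 3.7 and 4.17 in clone G5, 3.9 and 4.6 in Nanog-null ESC, 0.407 and 0.331 in WT piPSC, and 0.878 and 1.11 in WT MEF. Across batches it passed neither test of Nanog loss, with log2 changes of 0.30 ± 0.21 (edgeR's adjusted p = 0.24) in ESC and -0.00 ± 0.20 (edgeR's adjusted p = 0.99) in iPSC. It was called higher in Nanog-null ESC within batch AC, at 0.46 ± 0.18 (edgeR's adjusted p = 0.035), and in the fit without WT iPSC 1, at 0.46.

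The remaining regulators were lower. Nanos3, needed for survival of primordial germ cells, was at 6.23 and 7.82 FPKM in WT ESC of batch AC, 2.50 to 3.07 in the JI samples, 2.00 to 2.29 in WT iPSC and 1.71 to 3.04 in the Nanog-null lines. Its log2 change in Nanog-null ESC was -1.13 ± 0.35 (edgeR's adjusted p = 0.012), and the call was lost without WT ESC 2 (-0.88) or without Nanog-null ESC 2 (-0.99). In Nanog-null iPSC it was -0.32 ± 0.39 (edgeR's adjusted p = 0.51), and -1.27, called lower, without WT iPSC 1. Prdm1, a repressor that specifies primordial germ cells and also acts in other cell types, was at 1.85 and 2.19 FPKM in WT MEF and 1.91 to 2.60 in WT ESC. For Prdm1 the log2 change was -1.43 ± 0.32 in Nanog-null ESC (edgeR's adjusted p = 0.0013) and -0.96 ± 0.34 in Nanog-null iPSC (edgeR's adjusted p = 0.022), and against WT iPSC 1 alone the last was -0.11 ± 0.20 (edgeR's adjusted p = 0.66). The iPSC call was lost without clone G2 replicate 1 (-0.90), WT ESC 3 (-0.74), WT ESC 4 (-0.86) or WT iPSC 3 (-0.79). Brdt, a testis bromodomain protein, was at 2.07 to 2.97 FPKM in WT ESC and 0.631 to 0.820 in Nanog-null ESC, a log2 change of -1.40 ± 0.29 (edgeR's adjusted p = 6.85e-04). In Nanog-null iPSC Brdt changed by -1.60 ± 0.24 on the log2 scale (edgeR's adjusted p = 3.80e-05), a call lost without WT iPSC 1 (-0.55).

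Of the 12 meiosis genes, 10 were called lower in Nanog-null ESC and 7 in Nanog-null iPSC, against 26.0% and 31.1% of the 17587 genes tested. Aurkc is a meiotic Aurora kinase. Aurkc was at 101 and 97.8 FPKM in WT ESC of batch AC, 19.3 and 14.2 in WT ESC of batch JI, 81.7 in WT iPSC of batch AC and 14.4 and 14.5 in WT iPSC of batch JI. Aurkc stood at 8.81 and 7.61 FPKM in clone G2, 10.9 and 14.8 in clone G5, 6.27 and 6.76 in Nanog-null ESC, 0.422 and 0.313 in WT piPSC, and 0 and 0.126 in WT MEF. The Nanog-null samples overlapped WT cells of batch JI at clone G5 replicate 2, and lay far below the AC samples, their own batch. For Aurkc the log2 change was -3.87 ± 0.18 (edgeR's adjusted p = 1.40e-10) in ESC and -3.02 ± 0.15 (edgeR's adjusted p = 2.25e-10) in iPSC. Dmc1, the meiotic recombinase, was at 8.62 and 9.06 FPKM in WT ESC of batch AC, 22.6 and 20.3 in WT ESC of batch JI, 5.39 in WT iPSC of batch AC and 18.7 and 19.2 in WT iPSC of batch JI. Dmc1 stood at 0.538 and 0.724 FPKM in clone G2, 1.33 and 1.14 in clone G5, 0.755 and 0.76 in Nanog-null ESC, 0.0336 and 0.0514 in WT piPSC, and 0 and 0.0278 in WT MEF. The Nanog-null samples lay below each sample of WT ESC and of WT iPSC, and its log2 change was -3.43 ± 0.21 (edgeR's adjusted p = 2.00e-09) in ESC and -2.87 ± 0.18 (edgeR's adjusted p = 3.42e-09) in iPSC. Hormad2, a chromosome axis protein of the meiotic checkpoint, was at 8.43 and 9.14 FPKM in WT ESC of batch AC, 9.74 and 7.46 in WT ESC of batch JI, 8.17 in WT iPSC of batch AC and 8.77 and 9.67 in WT iPSC of batch JI. Hormad2 stood at 0.613 and 0.944 FPKM in clone G2, 1.45 and 1.67 in clone G5, 0.703 and 0.714 in Nanog-null ESC, 0.0793 and 0.0738 in WT piPSC, and 0 and 0.13 in WT MEF. It was even across batches in WT cells and below 2 FPKM in each Nanog-null sample. For Hormad2 the log2 change was -3.45 ± 0.26 (edgeR's adjusted p = 2.71e-08) in ESC and -2.98 ± 0.22 (edgeR's adjusted p = 2.10e-08) in iPSC.

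Hormad1, the partner axis protein, was at 21.8 and 26 FPKM in WT ESC of batch AC, 49.99 and 51 in WT ESC of batch JI, 43.6 in WT iPSC of batch AC and 45.3 and 46.9 in WT iPSC of batch JI. Hormad1 stood at 4.47 and 5.54 FPKM in clone G2, 3.64 and 4.5 in clone G5, 10.5 and 8.66 in Nanog-null ESC, 0.171 and 0.148 in WT piPSC, and 0 and 0 in WT MEF. All Nanog-null samples lay below all WT ESC and WT iPSC samples, and both clones lay below Nanog-null ESC. For Hormad1 the log2 change was -1.50 ± 0.22 (edgeR's adjusted p = 3.25e-05) in ESC and -2.95 ± 0.19 (edgeR's adjusted p = 8.55e-09) in iPSC. Smc1b, a meiotic cohesin subunit, was at 3.84 and 3.27 FPKM in WT ESC of batch AC, 15 and 14.8 in WT ESC of batch JI, 2.5 in WT iPSC of batch AC and 11.5 and 10.8 in WT iPSC of batch JI. Smc1b stood at 0.668 and 0.592 FPKM in clone G2, 1.1 and 1.34 in clone G5, 1.27 and 1.03 in Nanog-null ESC, 0.0153 and 0.0467 in WT piPSC, and 0.0285 and 0.0254 in WT MEF. Here the JI samples were the high ones, and the Nanog-null samples lay below all WT ESC and WT iPSC samples. For Smc1b the log2 change was -1.59 ± 0.16 (edgeR's adjusted p = 7.38e-07) in ESC and -1.56 ± 0.15 (edgeR's adjusted p = 3.99e-07) in iPSC. Sycp1, the transverse filament of the synaptonemal complex, was at 5.34 and 5.81 FPKM in WT ESC of batch AC, 4.84 and 2.18 in WT ESC of batch JI, 7.56 in WT iPSC of batch AC and 3.65 and 4.25 in WT iPSC of batch JI. Sycp1 stood at 1.5 and 1.79 FPKM in clone G2, 1.82 and 1.86 in clone G5, 2.03 and 2.41 in Nanog-null ESC, 1.29 and 1.41 in WT piPSC, and 0 and 0 in WT MEF. Sycp1 was among the 4 to 5 genes still at 1 FPKM or more in WT piPSC. For Sycp1 the log2 change was -1.35 ± 0.16 (edgeR's adjusted p = 4.81e-06) in ESC and -2.02 ± 0.15 (edgeR's adjusted p = 2.76e-08) in iPSC. The fragments behind 1 FPKM of Sycp1 differed up to 2.61 times between libraries, so its FPKM and its fragment test do not share 1 scale.

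Stra8, the retinoic acid target that opens meiosis, was at 54.9 and 46.2 FPKM in WT ESC of batch AC, 11.5 and 8.52 in WT ESC of batch JI, 24.6 in WT iPSC of batch AC and 7.25 and 7.04 in WT iPSC of batch JI. Stra8 stood at 15 and 14.9 FPKM in clone G2, 17.5 and 20.4 in clone G5, 26.8 and 26.4 in Nanog-null ESC, 0.208 and 0.118 in WT piPSC, and 0 and 0 in WT MEF. The Nanog-null samples lay above all JI samples and below the AC samples of WT ESC, and clone G5 lay just below WT iPSC 1. For Stra8 the log2 change was -0.82 ± 0.17 (edgeR's adjusted p = 6.50e-04) in ESC and -0.80 ± 0.17 (edgeR's adjusted p = 8.47e-04) in iPSC. Without a term for batch the iPSC change was 0.35, of the other sign. Sycp3, a lateral element of the synaptonemal complex, was at 15.2 and 15.1 FPKM in WT ESC of batch AC, 46.1 and 37.9 in WT ESC of batch JI, 4.91 in WT iPSC of batch AC and 51.5 and 47.1 in WT iPSC of batch JI. Sycp3 stood at 4.87 and 4.72 FPKM in clone G2, 9.02 and 10.1 in clone G5, 5.7 and 6.02 in Nanog-null ESC, 0.0307 and 0.0627 in WT piPSC, and 0.29 and 0 in WT MEF. WT iPSC 1 lay among the Nanog-null samples. For Sycp3 the log2 change was -1.08 ± 0.33 (edgeR's adjusted p = 0.012) in ESC, a call lost without WT ESC 1 (-0.86), WT ESC 2 (-0.90), Nanog-null ESC 1 (-1.06) or Nanog-null ESC 2 (-1.10). In Nanog-null iPSC it was -0.50 ± 0.35 (edgeR's adjusted p = 0.23), and against WT iPSC 1 alone 0.45 ± 0.18 (edgeR's adjusted p = 0.039). Leaving out WT iPSC 1 gave -1.47, called lower.

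Stag3, a meiotic cohesin subunit, was at 28.6 and 29.1 FPKM in WT ESC of batch AC, 51 and 34.8 in WT ESC of batch JI, 7.27 in WT iPSC of batch AC and 32.2 and 34 in WT iPSC of batch JI. Stag3 stood at 8.02 and 8.74 FPKM in clone G2, 9.75 and 11.2 in clone G5, 6.45 and 7.39 in Nanog-null ESC, 0.654 and 1.67 in WT piPSC, and 1.07 and 1.19 in WT MEF. WT iPSC 1 was low here too. For Stag3 the log2 change was -2.06 ± 0.35 (edgeR's adjusted p = 1.23e-04) in ESC and -0.36 ± 0.36 (edgeR's adjusted p = 0.4) in iPSC, and against WT iPSC 1 alone 0.51 ± 0.21 (edgeR's adjusted p = 0.044). Leaving out WT iPSC 1 gave -1.34 in iPSC, also called lower. Rec8, the meiotic kleisin of cohesin, was at 10.9 and 10.8 FPKM in WT ESC of batch AC, 11.3 and 6.62 in WT ESC of batch JI, 5.63 in WT iPSC of batch AC and 6.38 and 8.53 in WT iPSC of batch JI. Rec8 stood at 7.18 and 7.15 FPKM in clone G2, 8.16 and 8.13 in clone G5, 5.24 and 5.5 in Nanog-null ESC, 0.0441 and 0.214 in WT piPSC, and 0 and 0 in WT MEF. Clones and WT iPSC overlapped, and Nanog-null ESC lay below all WT ESC samples. For Rec8 the log2 change was -0.85 ± 0.21 (edgeR's adjusted p = 0.0033) in ESC and 0.13 ± 0.21 (edgeR's adjusted p = 0.62) in iPSC. The last meiosis genes were low: Sycp2, a lateral element protein, had 8 to 61 fragments in WT ESC and WT iPSC and 42 to 105 in the Nanog-null lines, and passed no test of Nanog loss. Spo11, which cuts DNA to start recombination, had 0 to 10 fragments in WT ESC, 0 to 5 in WT iPSC and 2 to 12 in the Nanog-null lines.

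Among the piRNA and Tudor domain genes, Tdrd12, a helicase with Tudor domains, had the highest level in WT ESC and WT iPSC. Tdrd12 was at 48.5 and 51.8 FPKM in WT ESC of batch AC, 64.4 and 52 in WT ESC of batch JI, 26.7 in WT iPSC of batch AC and 85.6 and 87.9 in WT iPSC of batch JI. Tdrd12 stood at 2.32 and 2.13 FPKM in clone G2, 2.86 and 3.2 in clone G5, 3.09 and 3.1 in Nanog-null ESC, 0.259 and 0.251 in WT piPSC, and 0 and 0.0338 in WT MEF. No Nanog-null sample exceeded 3.20 FPKM and no WT ESC or WT iPSC sample was below 26.7. For Tdrd12 the log2 change was -3.79 ± 0.30 (edgeR's adjusted p = 4.30e-08) in ESC and -4.12 ± 0.27 (edgeR's adjusted p = 5.04e-09) in iPSC. Mael, a piRNA pathway protein named Maelstrom, was at 5.55 and 6.35 FPKM in WT ESC of batch AC, 14.3 and 12.8 in WT ESC of batch JI, 5.56 in WT iPSC of batch AC and 18.4 and 17 in WT iPSC of batch JI. Mael stood at 6.79 and 5.81 FPKM in clone G2, 11.7 and 12 in clone G5, 6.68 and 5.8 in Nanog-null ESC, 0.0647 and 0.022 in WT piPSC, and 0 and 0 in WT MEF. Clone G5 lay above all AC samples, and the other Nanog-null samples lay among them. For Mael the log2 change was 0.20 ± 0.17 (edgeR's adjusted p = 0.34) in ESC and 0.43 ± 0.17 (edgeR's adjusted p = 0.043) in iPSC. The iPSC call was lost without any 1 of WT ESC 1 or 3, WT iPSC 1, 2 or 3, Nanog-null ESC 1 or 2, clone G2 replicate 1, clone G5 replicate 1 or 2, or WT MEF 2, with changes of 0.11 (without WT iPSC 1) to 0.45. Stk31, a kinase-like Tudor domain protein, was at 9.52 and 10.0 FPKM in WT ESC of batch AC, 5.81 and 5.42 in WT ESC of batch JI, 6.71 in WT iPSC of batch AC and 5.96 and 6.42 in WT iPSC of batch JI. Stk31 stood at 6.16 and 6.63 FPKM in clone G2, 5.35 and 4.91 in clone G5, 8.18 and 8.38 in Nanog-null ESC, 0.118 and 0.0548 in WT piPSC, and 0 and 0 in WT MEF. For Stk31 the log2 change was -0.21 ± 0.16 (edgeR's adjusted p = 0.29) in ESC and -0.37 ± 0.17 (edgeR's adjusted p = 0.07) in iPSC. It was called lower in Nanog-null ESC within batch AC, at -0.32 ± 0.10 (edgeR's adjusted p = 0.014), and without WT iPSC 1, at -0.32. In Nanog-null iPSC it was called lower without WT iPSC 1, at -0.80, by DESeq2, at -0.34, and by limma on log2(FPKM + 1), at -0.44, or on log2(FPKM + 0.1), at -0.50.

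Piwil2, a PIWI protein also called Mili, binds piRNAs directly. Piwil2 was at 2.68 and 2.59 FPKM in WT ESC of batch AC, 2.3 and 3.09 in WT ESC of batch JI, 1.9 in WT iPSC of batch AC and 2.58 and 2.64 in WT iPSC of batch JI. Piwil2 stood at 0.58 and 0.568 FPKM in clone G2, 0.614 and 0.709 in clone G5, 0.691 and 0.621 in Nanog-null ESC, 6.23 and 5.34 in WT piPSC, and 0.303 and 0.166 in WT MEF. The order of the groups was its own, with WT piPSC highest, WT ESC and WT iPSC between, the Nanog-null lines below and WT MEF lowest, and no overlap at any of these steps. For Piwil2 the log2 change was -1.90 ± 0.20 (edgeR's adjusted p = 9.34e-07) in Nanog-null ESC and -1.81 ± 0.19 (edgeR's adjusted p = 7.21e-07) in Nanog-null iPSC. In WT piPSC against WT iPSC it was 1.33 ± 0.20 (edgeR's adjusted p = 2.75e-05). Tdrd7, a Tudor domain protein also present in the lens, was highest in fibroblasts. Tdrd7 was at 0.882 and 0.813 FPKM in WT ESC of batch AC, 3.16 and 2.29 in WT ESC of batch JI, 1.43 in WT iPSC of batch AC and 4.6 and 3.77 in WT iPSC of batch JI. Tdrd7 stood at 3.45 and 3.57 FPKM in clone G2, 5.1 and 4.94 in clone G5, 2.44 and 3.38 in Nanog-null ESC, 1.37 and 1.09 in WT piPSC, and 12.9 and 12.7 in WT MEF. For Tdrd7 the log2 change was 1.96 ± 0.16 (edgeR's adjusted p = 5.98e-08) in Nanog-null ESC and 1.86 ± 0.16 (edgeR's adjusted p = 1.11e-07) in Nanog-null iPSC, samples whose fibroblast markers were also higher; their part in the result was not tested. Tdrkh, a Tudor domain protein of mitochondria, was also highest in fibroblasts. Tdrkh was at 1.49 and 1.44 FPKM in WT ESC of batch AC, 3.19 and 3.24 in WT ESC of batch JI, 1.25 in WT iPSC of batch AC and 2.68 and 2.55 in WT iPSC of batch JI. Tdrkh stood at 0.997 and 1.04 FPKM in clone G2, 1.23 and 1.36 in clone G5, 0.902 and 0.858 in Nanog-null ESC, 0.421 and 0.624 in WT piPSC, and 5.51 and 5.57 in WT MEF. For Tdrkh the log2 change was -0.72 ± 0.19 (edgeR's adjusted p = 0.0042) in ESC, a call lost without Nanog-null ESC 2 (-0.67), and -0.10 ± 0.18 (edgeR's adjusted p = 0.67) in iPSC.

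The other piRNA and Tudor domain genes stayed under 5 FPKM on average in every group. Mov10l1, a helicase that acts on piRNA precursors, was at 4.82 to 5.55 FPKM in WT ESC of batch AC, 2.84 to 4.37 in the JI samples and 1.37 to 1.57 in Nanog-null ESC. WT iPSC 1 had 1.17 FPKM and clones G2 and G5 had 0.985 to 2.39. For Mov10l1 the log2 change was -1.82 ± 0.33 (edgeR's adjusted p = 1.92e-04) in ESC and -0.72 ± 0.34 (edgeR's adjusted p = 0.079) in iPSC, where it became -1.76 and passed the test without WT iPSC 1. Tdrd5, a Tudor domain protein of the germ granule, was at 1.06 to 1.29 FPKM in WT ESC and 0.850 to 1.16 in Nanog-null ESC, with a log2 change of -0.01 ± 0.25 (edgeR's adjusted p = 0.99). The rest are given by fragments, since none reached a mean of 1 FPKM. Tdrd1, a Tudor domain scaffold for PIWI proteins, had 73 to 103 fragments in WT ESC of batch AC, 31 in WT iPSC 1, 38 to 75 in Nanog-null ESC and 58 to 93 in the clones. Tdrd9, a helicase that silences transposons, had 23 to 42 fragments in WT ESC of batch AC and 31 to 75 in Nanog-null ESC. Across batches, with all libraries, neither passed a test of Nanog loss by edgeR, at -0.83 ± 0.38 in ESC and 0.54 ± 0.43 in iPSC for Tdrd1 and 0.19 ± 0.33 and -0.76 ± 0.35 for Tdrd9. Within batch AC, Tdrd1 was called lower in Nanog-null ESC (-1.12 ± 0.21, edgeR's adjusted p = 1.74e-04) and higher in the clones than in WT iPSC 1 (1.45 ± 0.27, edgeR's adjusted p = 1.77e-04). Without WT iPSC 1 it was called lower in the clones, at -1.03, the opposite direction. It was called lower in Nanog-null ESC without WT iPSC 1 (-1.12), WT ESC 3 (-0.95) or WT iPSC 3 (-0.93), and Tdrd9 was called lower in the clones without WT ESC 3 or WT iPSC 3 (-0.87 each).

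Piwil4, a nuclear PIWI protein also called Miwi2, had 104 fragments in WT iPSC 1, 7 to 24 in WT ESC of batch AC and 6 to 34 in the Nanog-null samples. Asz1, a germ granule protein, had 45 fragments in WT iPSC 1, 12 to 13 in the AC samples of WT ESC, 6 to 17 in Nanog-null ESC and 1 to 4 in the clones. Both genes were called lower in Nanog-null iPSC than in WT iPSC, with log2 changes of -2.43 ± 0.50 for Piwil4 (edgeR's adjusted p = 6.42e-04) and -3.89 ± 0.52 for Asz1 (edgeR's adjusted p = 1.42e-05). WT iPSC 1 decided these calls: without it the changes were -0.80 and -1.85 and neither passed. Tdrd6 had 0 to 4 fragments in every library and was not tested.

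Cyct, the testis form of cytochrome c, had the highest level of the 36 genes in batch JI. Cyct was at 68.1 and 72.9 FPKM in WT ESC of batch AC, 226 and 151 in WT ESC of batch JI, 80.1 in WT iPSC of batch AC and 256 and 255 in WT iPSC of batch JI. Cyct stood at 3.03 and 3.51 FPKM in clone G2, 7.39 and 7.21 in clone G5, 4.6 and 5.8 in Nanog-null ESC, 0.31 and 0.19 in WT piPSC, and 0 and 0 in WT MEF. The Nanog-null samples lay far below both batches of WT ESC and WT iPSC, and WT MEF had 0 fragments. For Cyct the log2 change was -3.64 ± 0.19 (edgeR's adjusted p = 1.09e-09) in ESC and -4.16 ± 0.17 (edgeR's adjusted p = 8.19e-11) in iPSC. Slc25a31, a testis ADP/ATP carrier, was at 1.83 to 2.32 FPKM in WT ESC, 1.57 to 1.97 in Nanog-null ESC and 1.43 to 3.13 in the clones. It passed neither test of Nanog loss, with log2 changes of -0.32 ± 0.21 and 0.07 ± 0.21 (edgeR's adjusted p = 0.21 and 0.78). Tex101, a surface protein of testis germ cells, was at 0.562 to 1.09 FPKM in WT ESC, 1.29 to 1.49 in WT iPSC and 0.528 to 0.815 in the Nanog-null samples. For Tex101 the log2 change was -0.98 ± 0.37 in Nanog-null iPSC (edgeR's adjusted p = 0.034), a call lost without WT ESC 1 (-0.97), WT iPSC 1 (-0.82), clone G2 replicate 1 (-1.0) or 2 (-0.98), or clone G5 replicate 2 (-0.85). In Nanog-null ESC it was 0.08 ± 0.40 (edgeR's adjusted p = 0.89).

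**Figure D2:**
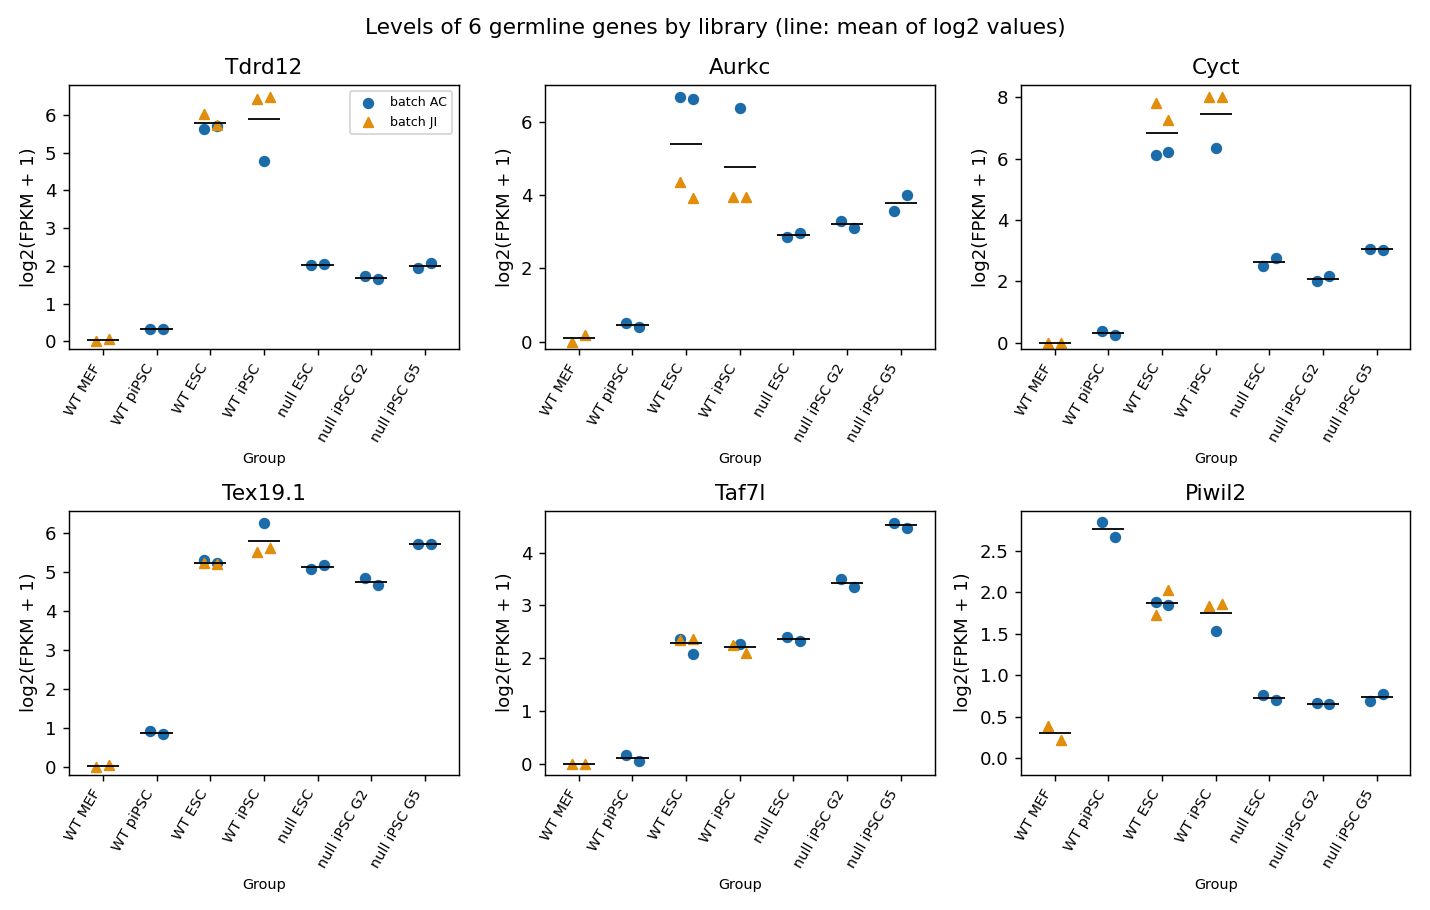
Level of 6 genes in each library as log2(FPKM + 1), by group (circles batch AC, triangles batch JI, line the mean of the log2 values). Tdrd12, Aurkc and Cyct were lower in each Nanog-null sample than in the AC samples of WT ESC; Tex19.1 in Nanog-null ESC lay just below WT ESC, Taf7l was highest in clone G5 and Piwil2 was highest in WT piPSC.

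In fibroblasts, the cell type that was reprogrammed, 4 to 5 of the 36 genes reached 1 FPKM. In WT MEF against WT ESC, 27 of 35 genes tested were called lower and 2 higher, against 39.1% lower and 38.1% higher of the 17587 genes tested. Groups and batch each entered the model, and a gene was called at an adjusted p under 0.05 (edgeR's quasi-likelihood test, Benjamini-Hochberg over all genes tested). No label says that replicates came from separate cultures, so p measures only the spread between these samples. The genes called higher were Tdrd7, with a log2 change of 2.89 ± 0.16 (edgeR's adjusted p = 1.10e-10), and Tdrkh, with 0.96 ± 0.18 (edgeR's adjusted p = 1.64e-04). Where both WT MEF libraries were at 0 fragments, the JI samples of WT ESC were set against a floor of 3 fragments per library, which covers counting error only. On that footing Cyct was at least 381-fold lower in WT MEF, Hormad1 264-fold, Mael 77.5-fold, Rec8 72.8-fold, Stk31 54.6-fold and Stra8 47.8-fold, each a lower bound. The bound was 27.7-fold for Taf7l, 27.4-fold for Sycp1, 11.6-fold for Slc25a31 and 3.17-fold for Tex101. Prdm1, Tdrd1, Tdrd9, Piwil4, Asz1 and Spo11 passed neither way across batches. Within batch JI, the batch of WT MEF, 29 genes were called lower and 2 higher, against 39.0% and 37.9% of all genes. The additional genes were Piwil4 (-2.26 ± 0.87) and Asz1, which was at 0 fragments in WT MEF. Piwil4 was at 0.111 and 0.791 FPKM in JI samples of WT ESC and 0.0568 and 0.101 in WT MEF. Asz1 was at 0.223 and 0.0892 in JI samples of WT ESC. The lowest WT ESC sample had 3 fragments of Piwil4 and 1 of Asz1. Across batches, Piwil4 and Asz1 were both called lower without WT iPSC 1, Asz1 without WT iPSC 3 too, and Prdm1 without WT ESC 3, at -1.09.

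In the partially reprogrammed clone, too, few of these genes reached 1 FPKM. In WT piPSC against WT iPSC, 32 of 35 genes were called lower and 1 higher, against 40.4% and 28.4% of all genes tested. Tex19.1 had a log2 change of -6.44 ± 0.19 (edgeR's adjusted p = 2.96e-13). For Stra8 the log2 change was -7.52 ± 0.30 (edgeR's adjusted p = 1.59e-11), for Aurkc -7.88 ± 0.26 (edgeR's adjusted p = 7.32e-13) and for Cyct -8.46 ± 0.30 (edgeR's adjusted p = 5.22e-12). The gene called higher was Piwil2, with 841 and 1001 fragments in the WT piPSC samples. Tdrd7 did not pass the test, at 0.02 ± 0.18 (edgeR's adjusted p = 0.94), nor did Spo11. Slc25a31, at 1.26 and 1.04 FPKM in WT piPSC, had a smaller log2 change of -0.97 ± 0.24 (edgeR's adjusted p = 0.0021), and Sycp1 had -2.45 ± 0.18 (edgeR's adjusted p = 1.16e-08). Within batch AC, where WT iPSC was 1 sample assumed to vary like the other groups, 32 were again called lower and 1 higher, against 39.8% and 30.9% of all genes, and Piwil2 had 1.54 ± 0.18 (edgeR's adjusted p = 6.85e-07). Piwil4 was called lower, at -2.83 ± 0.62, but not without WT iPSC 1, at -1.21, and Tdrd9, at -1.66 ± 0.42, not without WT iPSC 1, at -1.52. These calls are for 1 clone. WT iPSC also served as the control of the Nanog-null iPSC, and WT ESC as that of WT MEF and of Nanog-null ESC.

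In Nanog-null ESC against WT ESC, 20 of the 35 genes tested were called lower and 1, Tdrd7, higher, against 26.0% lower and 31.1% higher of all genes. Nanog-null ESC were at passage 6 and WT ESC of both batches at passages 10 to 15, so genotype and passage cannot be told apart, also within batch AC. The median log2 change was -0.85 over the 35 genes and 0.05 over all genes tested. Lower calls took 5 of 8 regulators, 10 of 12 meiosis genes, 4 of 12 piRNA and Tudor domain genes tested and 1 of 3 testis proteins. Aurkc, Tdrd12, Cyct, Dazl, Hormad2 and Dmc1 had log2 changes of -3.87 to -3.43. Across batches, Tex19.1, Taf7l, Dnd1, Mael, Stk31, Tdrd5 and Slc25a31 did not pass, with log2 changes from -0.32 to 0.30. Within batch AC, where both groups had 2 samples, 22 were called lower, Stk31 and Tdrd1 being the additional ones, and 2 higher (Dnd1 at 0.46 ± 0.18 and Tdrd7), against 30.0% and 33.6% of all genes. All 9 fibroblast markers were called higher in Nanog-null ESC, and 6 of 7 pluripotency markers tested, which include Nanog itself, were called lower. The part of both marker sets in the result was not tested. At 705 to 714 FPKM, the summed fibroblast markers in Nanog-null ESC were above 102 to 177 in WT ESC and below 3440 to 3489 in WT MEF.

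In iPSC, the mean of both Nanog-null clones against WT iPSC had 18 of 35 genes called lower and 3 higher (Taf7l, Tdrd7 and Mael), against 31.1% and 28.4% of all genes. The median log2 change was -0.80, and -0.04 over all genes. Lower calls took 5 of 8 regulators, 7 of 12 meiosis genes, 4 of 12 piRNA and Tudor domain genes and 2 of 3 testis proteins. Against WT iPSC 1 alone, the sample of the same batch, 17 were called lower and 7 higher, against 30.4% and 31.0% of all genes. The additional higher calls were Sycp3, Stag3, Tdrd1 (1.45 ± 0.27) and Tdrd5 (0.75 ± 0.24), and Prdm1 was no longer called. With WT iPSC 1 left out, 4 called changes moved by over 1.5 times and were still called: Dazl was at -3.34, Hormad1 at -2.35, Tdrd12 at -4.95 and Prdm1 at -1.96. Set against the AC samples of WT ESC instead, the clones had 22 genes called lower and 4 higher, against 33.8% and 35.6% of all genes. Those WT ESC samples were at passages 10 to 15 and the clones at passage 6. Fibroblast markers were called higher in 8 of 9 cases, pluripotency markers lower in 6 of 7 and 2-cell-like markers lower in 4 of 4. The pluripotency markers include Nanog itself. The 2-cell-like markers summed to 65.6 to 134 FPKM in the clones. That was below 400 in WT iPSC 1 and above 0.643 and 0.710 in the JI samples of WT iPSC. The part of these marker sets was not tested. Markers of testis somatic cells (5 genes) summed to 14.6 to 22.8 FPKM in the Nanog-null lines against 4.37 to 5.84 in WT ESC and WT iPSC. Of the 5, only 2 reached 1 FPKM in each Nanog-null sample. In Nanog-null iPSC 2 were called higher and 1 lower than in WT iPSC, with a median log2 change of -0.03. The part of these genes was not tested either.

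Of the 20 genes called lower in Nanog-null ESC, 14 (70.0%) were also called lower in Nanog-null iPSC, which is 77.8% of the 18 called there. Over all genes tested, 3624 were called lower in both, 79.4% of the 4565 and 66.3% of the 5469. They were Dazl, Ddx4, Prdm1, Brdt, Stra8, Sycp1, Hormad1, Hormad2, Smc1b, Dmc1, Aurkc, Tdrd12, Piwil2 and Cyct. The groups compared are separate, but 1 fit with a shared batch term gave both sets of values. Within batch AC, 13 genes were shared, 59.1% of the 22 and 76.5% of the 17, and over all genes 63.7% and 63.0%. The change in cells without Nanog was then tested for a difference between iPSC and ESC. For 5 genes the change was higher in iPSC and for 4 lower, against 5.42% and 10.2% of all genes. Taf7l differed by 1.74 ± 0.22 on the log2 scale (edgeR's adjusted p = 2.39e-04), Stag3 by 1.69 ± 0.44 (0.018 by the same test), Hormad1 by -1.45 ± 0.25 (0.002) and Asz1 by -3.05 ± 0.73 (0.013). The other 5 were Rec8, Aurkc, Ddx4, Sycp1 and Tex19.1. This count of 9 was 3 without Nanog-null ESC 1, 2 without Nanog-null ESC 2, 5 without WT iPSC 1 and 5 without clone G5 replicate 1. Over all genes, 2744 were called in the main fit, 1148 and 1027 without Nanog-null ESC 1 and 2, and 1668 without WT iPSC 1.

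**Figure D3:**
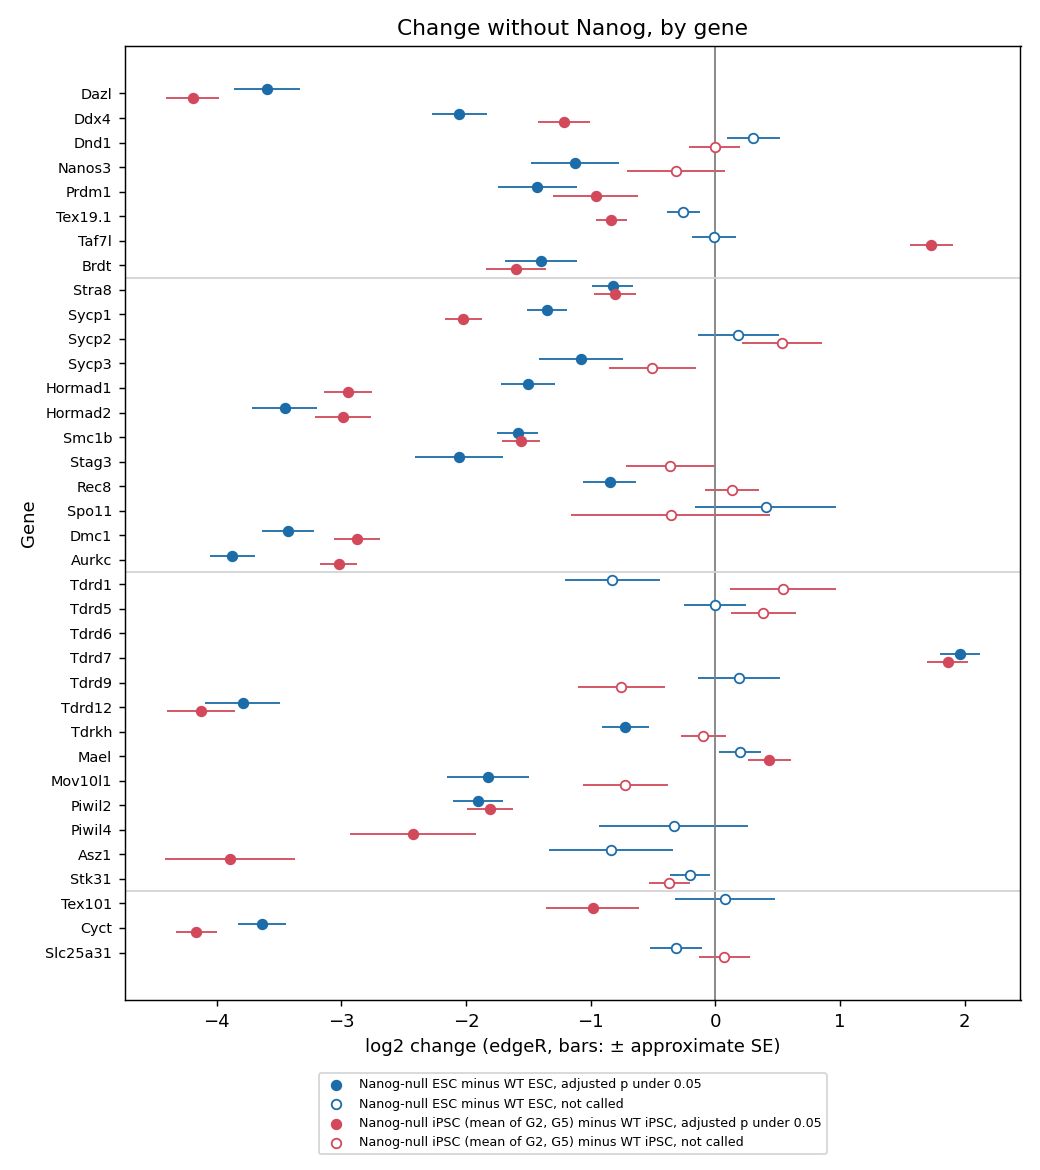
Log2 change without Nanog for each gene tested (edgeR fit of fragments, bars ± approximate SE), in ESC and in iPSC; filled points have an adjusted p under 0.05. Most called points lie left of 0, 20 of 21 in ESC and 18 of 21 in iPSC, and Tdrd7 lies right of 0 in both.

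Between Nanog-null iPSC and Nanog-null ESC few of these genes were called. In iPSC, 3 genes were called higher (Taf7l 1.68 ± 0.16, Aurkc 0.63 ± 0.16 and Tdrd7 0.55 ± 0.13) and 4 lower (Stra8 -0.69 ± 0.15, Hormad1 -1.11 ± 0.19, Asz1 -1.87 ± 0.58 and Stk31 -0.49 ± 0.15), against 7.15% and 6.85% of all genes. That total of 7 was 14 without WT iPSC 1, 2 without either sample of Nanog-null ESC, and 4 without clone G2 replicate 1 or clone G5 replicate 2. Over all genes, 2463 were called in the main fit, 4276 without WT iPSC 1, and 715 and 587 without Nanog-null ESC 1 and 2. Against WT piPSC, the Nanog-null clones had 31 genes called higher, against 42.4% of all genes, and 1 lower, Piwil2 at -3.14 ± 0.16, against 32.7%. Sycp1 (0.43 ± 0.15) and Tdrd9 (0.91 ± 0.35) lost the call in some fits: Sycp1 without WT piPSC 1 (0.37), clone G2 replicate 2 (0.37) or clone G5 replicate 2 (0.40), and Tdrd9 without either WT piPSC sample (1.0 and 0.83), clone G2 replicate 1 (0.75) or clone G5 replicate 1 (0.84). This comparison shares its clones with that against WT iPSC.

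Clone G2 was lower than clone G5 in 8 genes by edgeR, against 2.13% of all genes, and higher in 0, against 3.67%. The lower genes were Cyct (-1.16 ± 0.23), Taf7l (-1.12 ± 0.17), Dmc1 (-1.01 ± 0.24), Tex19.1 (-0.99 ± 0.14), Smc1b (-0.92 ± 0.19), Mael (-0.89 ± 0.18), Slc25a31 (-0.89 ± 0.21) and Aurkc (-0.62 ± 0.18), all as log2 changes. At an unadjusted p under 0.05 edgeR had 1 gene higher, Stk31, and DESeq2 called 0 higher. Over all 17587 genes tested, 3081 passed that unadjusted threshold in either direction. The count of 8 was 14 without WT iPSC 1, 2 without clone G2 replicate 1 or clone G5 replicate 2, and 3 without clone G2 replicate 2 or clone G5 replicate 1. Over all genes, 1020 were called in the main fit and 2199 without WT iPSC 1. Marker sets differed too. Of 9 fibroblast markers 5 were called higher in clone G2, at a summed 1081 to 1151 FPKM against 434 to 435. Of 7 pluripotency markers tested 2 were called lower in clone G2, with sums of 2315 to 2317 against 3221 to 3968 FPKM. Of 4 2-cell-like markers tested 2 were called lower, with sums of 65.6 to 68.7 against 115 to 134 FPKM. The part of these marker sets was not tested. Each clone is 1 line, so this is a difference between lines.

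WT iPSC and WT ESC were compared across both batches and within each. Across batches, Tex19.1 (0.67 ± 0.11), Tdrd7 (0.64 ± 0.14) and Piwil4 (1.69 ± 0.49) were called higher in WT iPSC and Stag3 (-1.0 ± 0.30), Stra8 (-0.71 ± 0.16) and Smc1b (-0.42 ± 0.12) lower, 3 each, against 7.04% and 1.83% of all genes. The count of 6 moved with single libraries. Without WT ESC 1 it was 1 (Tex19.1), and without WT iPSC 1 it was also 1, but that gene was Tdrd12 (0.65), and none of the 6 was called. It was 2 without WT ESC 2, and 3 with any of the 6 Nanog-null samples or either WT MEF sample left out. Dropping WT ESC 3 gave 14, WT ESC 4 gave 12 and WT iPSC 3 gave 11. Over all genes, 1561 were called in the main fit, 450 without WT ESC 1 and 43 without WT iPSC 1. Markers of 2-cell-like cells were called higher in WT iPSC in 4 of 4 tested. They summed to 400 FPKM in WT iPSC 1. In batch JI they summed to 0.643 and 0.710 in WT iPSC, below 1.20 to 1.27 in WT ESC. The part of these markers in the calls was not tested. In batch AC, with WT iPSC 1 alone, 8 genes were called higher and 15 lower, against 17.6% and 15.8% of all genes. In batch JI, with 2 samples a group, Tdrd12 was called higher (0.65 ± 0.11, edgeR's adjusted p = 0.011) and 0 genes lower by edgeR, against 0.176% and 0.0739% of all genes. Fitted on the JI samples alone, Tdrd12 was at 0.55 and did not pass (edgeR's adjusted p = 0.58). At an unadjusted p under 0.05 Stra8 and Smc1b, 2 genes, were lower in batch JI. Some genes pass such a threshold by chance alone, and neither gene was called after adjustment. Tdrd12 had -0.87 ± 0.13 in batch AC (edgeR's adjusted p = 6.44e-05), the opposite sign. The difference between the batches was itself called for 14 genes, 10 with a higher change in JI and 4 with a lower one, against 11.3% and 7.21% of all genes. It was 2.48 ± 0.44 for Tdrd1, 1.92 ± 0.23 for Sycp3, 1.85 ± 0.26 for Mov10l1, 1.85 ± 0.29 for Stag3 and 1.85 ± 0.27 for Prdm1, and -1.45 ± 0.26 for Brdt and -1.23 ± 0.20 for Dazl, all in log2 units. WT iPSC 1 was at passage 6 and the JI samples were at passages 10 to 15, so batch, strain and passage cannot be told apart.

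**Figure D4:**
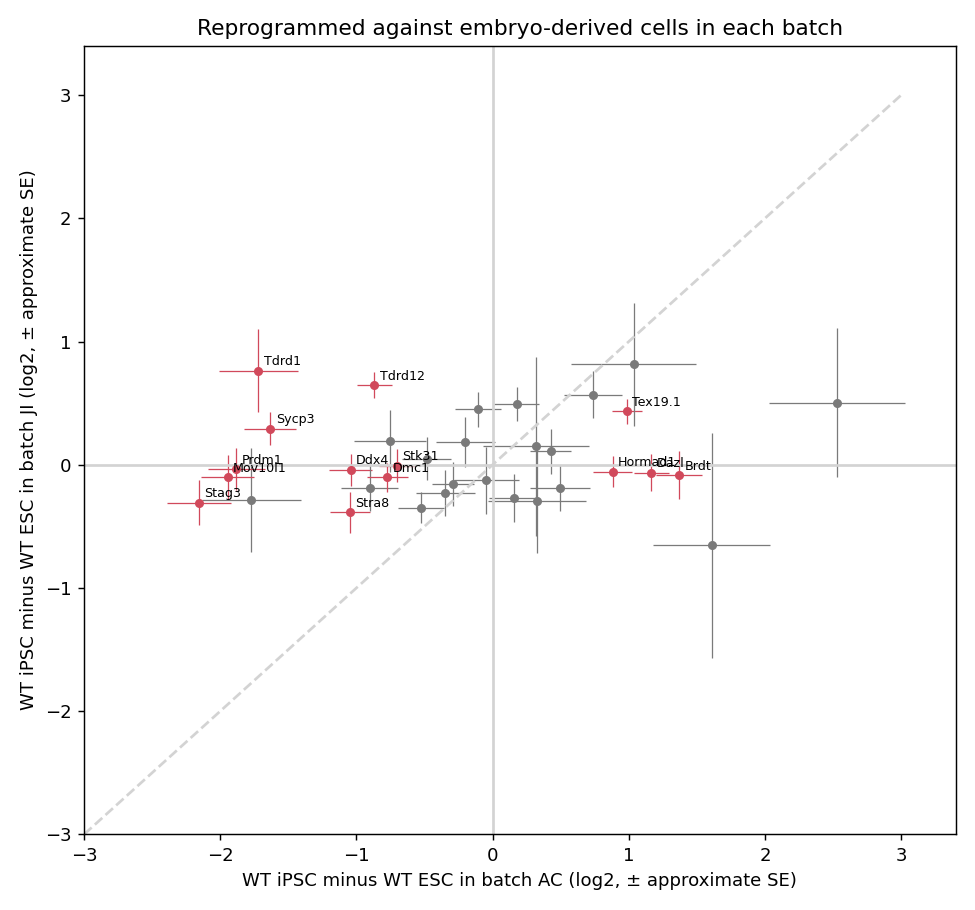
Log2 change of WT iPSC against WT ESC in batch AC (x axis, 1 WT iPSC sample) and batch JI (y axis, 2 samples), 1 point a gene with ± approximate SE, Spo11 left out; named red points are genes whose change differed between batches. The 14 red points include Tdrd12, at -0.87 in batch AC and 0.65 in batch JI.

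Levels of many of these genes also differed between the batches, as did those of genes at large. In the fit over all groups 12 of 35 genes tested (34.3%) were called higher in JI than in AC and 10 (28.6%) lower. Over all genes the shares were 34.5% and 36.2%, so these genes differed no more often than others. Dazl had a log2 difference of -2.81 ± 0.19, Aurkc -2.53 ± 0.13 and Stra8 -2.16 ± 0.15, and Sycp3 2.12 ± 0.29, Smc1b 2.08 ± 0.13, Cyct 1.54 ± 0.13 and Dmc1 1.52 ± 0.14. This difference is that of the samples coded AC and JI, whose strains also differ.

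Other genes of the same pathways were counted in the same comparisons, in which 26.0% of all genes tested were called lower and 31.1% higher in Nanog-null ESC, and 31.1% lower and 28.4% higher in Nanog-null iPSC. Of 10 other germ cell regulators tested, 6 were called lower and 2 higher in Nanog-null ESC, and 5 lower and 1 higher in Nanog-null iPSC. Prdm14, a regulator of primordial germ cells and naive pluripotency, was at 7.29 to 23.5 FPKM in WT ESC and 3.27 to 3.29 in Nanog-null ESC, a log2 change of -2.88. Lin28a, an RNA-binding protein of early germ cells and stem cells, had 2.45. Of 24 other meiosis genes tested, 13 were lower and 2 higher in ESC, and 15 lower and 1 higher in iPSC. Tex11, a meiotic protein encoded on the X chromosome, was at 4.06 to 8.42 FPKM in WT ESC and 0.619 to 0.650 in Nanog-null ESC, a log2 change of -3.53. Of 13 other piRNA pathway genes tested, 4 were lower and 1 higher in ESC, and 7 lower and 3 higher in iPSC. The higher one in ESC was Fkbp6, a co-chaperone of the pathway, at 7.77 to 10.2 FPKM in WT ESC, 93.7 to 94.2 in Nanog-null ESC, 76.3 to 79.8 in clone G2 and 35.9 to 38.2 in clone G5, and its log2 change was 3.12 in ESC and 2.51 in iPSC. Of 16 genes for repressors of the germline programme, 8 were higher and 3 lower in Nanog-null ESC, and 6 higher and 5 lower in Nanog-null iPSC. Dnmt3b, a DNA methyltransferase, was at 2.94 to 9.54 FPKM in WT ESC and 60.9 to 61.9 in Nanog-null ESC. Dnmt3l, its cofactor, had a log2 change of 4.68 in ESC and 1.47 in iPSC, and Dnmt3b had 3.78 and 1.70. Hells, a chromatin remodeller needed for DNA methylation, had -1.07 and -1.55.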

How the data were processed

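RNA was sequenced from 17 samples. Per the submitters' processing notes, Cuffdiff 2.1.1, TopHat2 2.0.7, Bowtie2 2.0.5 and CASAVA were used, with the builds mm10 and NCBIM37 named and no role given for either. Per the file headers, the deposited sample tables hold estimated counts of fragments, a scaled count (a signal normalized by the authors) and FPKM for 28670 genes. Between 97.5% and 98.8% of the deposited estimated counts were whole to within 0.01. A table of group means was not used here. FPKM, as deposited by the authors, depends on their isoform lengths: the scaled fragments behind 1 FPKM differed by over 1.5 times between libraries for Brdt, Hormad2, Mov10l1, Stag3, Sycp1 and Tdrd7. The 19 genes with a status other than OK in some sample were left out of the tests; the summed levels of the pluripotency markers still hold 1 of them, Esrrb.

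Tests used edgeR 4.0.16 in R 4.3.3 (quasi-likelihood F test, TMM scaling) on the estimated counts rounded to whole numbers, since many of the genes are low and log2(FPKM + 1) understates their changes. Genes needed 10 fragments in 2 libraries (17587 genes; 35 of the 36, without Tdrd6). The fit had a term for each of 7 groups and for batch, with 9 residual degrees of freedom. Each Nanog-null clone was its own group, so p for their mean leaves out the spread between clones. Genes were called at a Benjamini-Hochberg adjusted p under 0.05. SE is the log2 change divided by the root of F, and is approximate. The precision of low genes is limited by their fragments. No replicate pair was a duplicate (chi-square per gene 1.58 to 627). The scripts were tested on simulated data. Changes of 1.5, 2 and 4 times put into Nanog-null ESC were recovered in 23.9%, 64.2% and 80.3% of the genes changed. Among those of them below the median level of all genes, recovery was 0%, 34.3% and 61.8%. A low gene that did not pass may therefore still differ. Genes with a group mean of 5 FPKM or more are given by sample, those from 1 to 5 by group and the rest by fragments, and at most 3 genes of each other list are named, those with the largest called change. One symbol each of the other regulators and the 2-cell-like markers was not matched, and 7 genes of the other lists were matched by gene ID. Promoters came from RefSeq on GRCm38.p6. The genes and lists were chosen with earlier results of these data known.

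Alternatives were DESeq2 1.42.0 size factors and test, no filter, a minimum mean FPKM of 1, limma 3.58.1 on log2(FPKM + 1) and log2(FPKM + 0.1), no batch term, each batch alone, only the groups compared, the replicate number as a block, and each library left out. A fit with a term for each group and batch, which gives the values within a batch, was chosen after seeing the data.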

Additional observations from a re-analysis of the deposited data

Results flagged for a closer look

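In WT ESC, the only group with 4 samples, 3 of the 36 genes had a sample far from the others. A chance rate of about 1 in 20 holds for 4 samples of 1 population. These samples come from both batches, so that rate does not apply. The gap to the nearest sample, divided by the range, was 0.901 for Taf7l (WT ESC 2 lowest, at 3.25 FPKM), 0.904 for Rec8 (WT ESC 4 lowest, at 6.62 FPKM) and 0.837 for Spo11 (WT ESC 1 highest, with 10 fragments).

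The change in cells without Nanog differed between iPSC and ESC, by edgeR's test of the difference itself, for 9 genes. The log2 difference, iPSC minus ESC, was 1.74 for Taf7l, 1.69 for Stag3, 0.98 for Rec8, 0.86 for Aurkc and 0.84 for Ddx4, and -3.05 for Asz1, -1.45 for Hormad1, -0.67 for Sycp1 and -0.58 for Tex19.1. For Stag3 and Asz1 the AC sample of WT iPSC was far from WT ESC of its batch (7.27 against 28.6 and 29.1 FPKM for Stag3).

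The change of WT iPSC against WT ESC differed between batches for 14 genes by the same kind of test. The log2 difference, JI minus AC, was 2.48 for Tdrd1, 1.92 for Sycp3, 1.85 for each of Mov10l1, Stag3 and Prdm1, 1.52 for Tdrd12, 1.0 for Ddx4, 0.70 for Stk31, 0.67 for Dmc1 and 0.66 for Stra8. It was -1.45 for Brdt, -1.23 for Dazl, -0.94 for Hormad1 and -0.55 for Tex19.1. Batch AC has 1 sample of WT iPSC, assumed to vary like the other groups.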

How the results depend on the processing

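Counts of genes called in the comparisons with WT MEF and WT piPSC and in those of Nanog loss stayed within 1.5 times of the main count under every alternative run. For single genes, 8686 values stayed on their side of the threshold, and those called also kept their direction. Sign was not compared where neither the main fit nor the alternative called the gene. Another 299 lost a call, 196 gained one, and 9 changes called in either fit had the other sign. The cause of the shifts below was not tested.

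For WT iPSC against WT ESC (6 genes called), 11 were called with no filter, 24 in batch AC alone, 23 and 1 within batches AC and JI, and 0 with limma on log2(FPKM + 0.1), or by edgeR with no batch term, batch JI alone or only the groups compared; DESeq2 called 7. For Nanog-null iPSC against Nanog-null ESC (7), limma on log2(FPKM + 0.1) gave 3, no batch term 1, batch AC alone 14 and only the groups compared 17. For clone G2 against G5 (8), no batch term gave 0, batch AC alone 14 and only the groups compared 16. For the difference of Nanog loss between iPSC and ESC (9), limma on log2(FPKM + 0.1) gave 2, no batch term 0 and batch AC alone 23. With each library left out, these 4 counts ranged from 1 to 14, 2 to 14, 2 to 14 and 2 to 12. Those of the other comparisons ranged from 18 to 24 (Nanog-null ESC), 18 to 22 (Nanog-null against WT iPSC), 30 to 32 (against WT piPSC), 29 to 31 (WT MEF), 31 to 33 (WT piPSC) and 20 to 24 (batch). Calls over all genes moved too. For WT iPSC against WT ESC they were 1561 of 17587 in the main fit and 7596 of 17216 in batch AC alone. In the same fits they were 2463 and 5764 for Nanog-null iPSC against Nanog-null ESC, and 1020 and 3490 for the clones. For the difference of Nanog loss they were 2744 and 7722. With no batch term these 4 comparisons had 0, 12, 5 and 2 genes called.

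Sign changes are given here for genes called in the main fit, the alternative or both. The sign changed for Tdrd12 in batch AC alone (-0.88 for WT iPSC against WT ESC, and 0.64 for the difference of Nanog loss). In Nanog-null against WT iPSC it changed for Sycp3 (0.45) and Stag3 (0.51) in batch AC alone and with only the groups compared, for Stra8 (0.35) and Mael (-0.67) with no batch term, and for Tdrd1 without WT iPSC 1 (-1.03, called lower, the low end of a range up to 0.84 with 1 library left out).

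Replicate numbers do not pair the samples: over 10 pairs of groups, same-numbered samples had correlations of -0.0405 to 0.115, 1 of them over 0.1. With the replicate number as a block, 9 genes were called for WT iPSC against WT ESC, 21 for Nanog-null ESC, 19 for Nanog-null iPSC against WT iPSC and 15 for batch. The limma scale moved the median of all genes by 0.16 for WT piPSC against WT iPSC and by -0.13 for the Nanog-null clones against WT piPSC. Fragments under 10 a library limit what can be said of Spo11, Asz1 and Tdrd6.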
